A study of Mus musculus with 6 samples.

Results

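The angiotensin and endothelin system was examined through 9 genes: Agt, Ace, Agtr1a, Agtr2, Edn1, Ece1, Ednra, Ednrb and Nr3c2. They were found by their gene name among the non-control spots of each array, which gave 10 probes of 60 bases among 55681 probes, and 9 genes among 35440. The arrays held RNA from cardiomyocyte fractions, isolated by retrograde perfusion from adult mice 6 weeks after transverse aortic constriction (TAC), an operation that narrows the aorta and loads the left ventricle. The 3 H19 KO samples came from mice without H19 (an imprinted long non-coding RNA), while the 3 WT samples from their wild-type littermates; all 6 samples had TAC, and unoperated hearts were not analysed here. How much of the H19 locus the allele removes was not stated in the labels. Nor do they say that the 3 samples of a genotype were separate animals, and the p-values below then cover only the variation among these samples, which may be technical.

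Angiotensinogen, the product of Agt, is cut by renin and then by the angiotensin-converting enzyme encoded by Ace to give angiotensin II, which acts through the receptors encoded by Agtr1a and Agtr2. Endothelin-1 is made from the Edn1 precursor by the endothelin-converting enzyme encoded by Ece1 and acts through the receptors encoded by Ednra and Ednrb. Aldosterone, whose release angiotensin II stimulates, acts through the mineralocorticoid receptor encoded by Nr3c2. In the heart both peptides are known to constrict vessels and to promote growth of cardiomyocytes, and Ednrb and Ace are known as genes of the vascular endothelium.

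The probe of Agtr2 was the dimmest of the 10 and well above background on 1 array only. Of the other 9, those of Agt and Nr3c2 and the weaker of the Ednrb probes gave signals close to the lowest that an array could measure. Their letters are shown because the readings below turn on these dim spots, and because the Ednrb probes gave overall differences of opposite sign, both within the spread between arrays. Each sequence is the probe of the array as deposited, written 5′ to 3′ along the strand named, with no letter in capitals because no motif was searched.
Agt probe, chr8:127083142-127083201, minus strand (mm9): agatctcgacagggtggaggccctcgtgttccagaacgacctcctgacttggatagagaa
Nr3c2 probe, chr8:79766370-79766429, plus strand (mm9): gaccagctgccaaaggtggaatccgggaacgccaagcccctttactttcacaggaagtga
Ednrb weaker probe, chr14:104220870-104220929, minus strand (mm9): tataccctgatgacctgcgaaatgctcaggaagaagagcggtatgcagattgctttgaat

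The other probes lie, in mm9 coordinates, at chr11:105850398-105850457 for Ace, chr13:30474638-30474697 for Agtr1a, chrX:21065564-21065623 for Agtr2 and chr13:42403101-42403160 for Edn1, all on the plus strand. Those of Ece1 (chr4:137519606-137519665, plus strand), Ednra (chr8:80186985-80187044, minus strand) and the brighter Ednrb probe (chr14:104214484-104214543, minus strand) complete the set. An exon annotation of mm9 was not used here. No other probe of the array had the same letters as any of the 10.

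Levels are given as log2 of the processed intensity minus the 75th percentile of the same array, so 0 marks that percentile, and levels of different probes are not set against each other. The share of spots well above background was 48.81%, 58.64% and 51.19% on H19 KO replicates 1 to 3. On the WT replicates it was 54.53%, 55.31% and 55.45%. The number of arrays limits the precision. Slide 1 carried replicate 1 of both genotypes and slide 2 carried replicates 2 and 3. H19 checked the labels: its brightest probe read -6.01 ± 0.37 in H19 KO and 1.09 ± 0.52 in WT (SD, n = 3 each), and 0 of 3 H19 KO arrays were well above background on any of its 7 probes. The cardiomyocyte markers Actc1, a sarcomeric actin, and Myl3, a myosin light chain, read 8.92 and 8.83 in H19 KO and 9.04 and 8.998 in WT. RNA of other cells was also present: Dcn, the fibroblast gene for decorin, read 7.20 in H19 KO and 6.55 in WT, and Fabp4, a fatty acid binding protein of endothelium, read 7.57 in H19 KO and 7.61 in WT. In such bulk fractions fewer cells of a type and less RNA per cell cannot be told apart.

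None of the 8 genes that could be tested passed an adjusted p of 0.05 (limma, Benjamini-Hochberg over the 21888 genes tested), and 0 of 8 had an unadjusted p under 0.05. Across all genes 0.0365% passed the adjusted threshold, 8 genes in all, and 7.9% had an unadjusted p under 0.05. The ninth gene, Agtr2, was not tested because its probe was well above background on 1 array only. Of the 8, 5 read lower and 3 higher in H19 KO, against 60.1% lower among all genes, and their median log2 difference was -0.05, the same as the -0.05 of all genes; scaled to the median of all probes instead, 0 of 8 read lower and the all-gene median was 0.37. The arrays of the genotypes did not overlap for 1 of the 8, Agt, against 10.5% of all genes (8.36% with H19 KO below WT and 2.1% with H19 KO above). The sizes of the intervals differ: Ednra and Agt were measured narrowly, Ace and Edn1 widely.

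**Figure D1:**
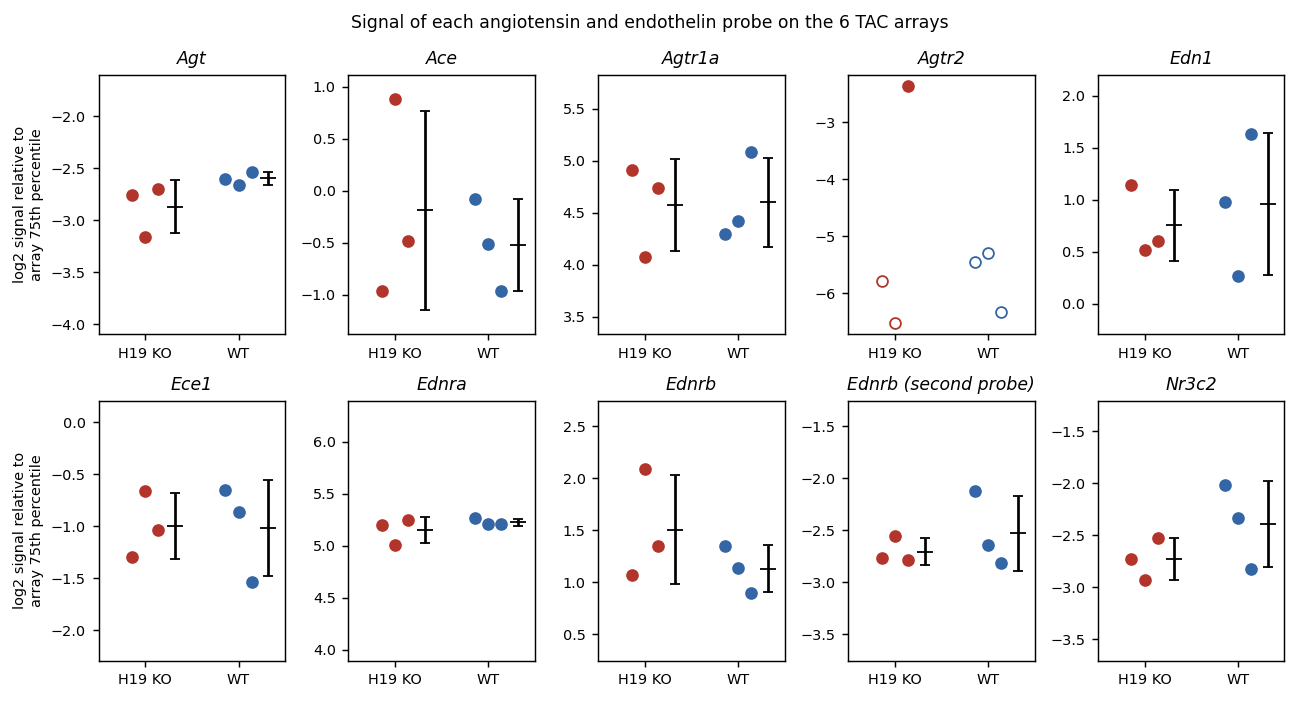
Level of each of the 10 probes (log2 signal relative to the 75th percentile of the array) on the 3 H19 KO arrays (red) and the 3 WT arrays (blue), with the mean and SD of each genotype in black; open circles mark spots not well above background, and Agtr2 has no mean because it was measured on 1 array. H19 KO and WT overlap in every panel but that of Agt, whose H19 KO arrays lie between -3.16 and -2.70 and WT arrays between -2.66 and -2.53.

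Agt, the precursor of all angiotensin peptides, read -2.75, -3.16 and -2.70 on the 3 H19 KO arrays and -2.60, -2.66 and -2.53 on the 3 WT arrays. Every H19 KO array lay below every WT array, replicate 2 of H19 KO the furthest, yet the gap between the closest arrays of the genotypes was small. The means were -2.87 ± 0.25 in H19 KO and -2.60 ± 0.06 in WT (SD, n = 3 each), a log2 difference of -0.27 (SE 0.17, limma adjusted p = 0.765), or 0.827 times the WT level with a 95% confidence interval of 0.621 to 1.10 (the interval of this ratio is called the ratio interval for the genes below). The exact permutation test of 3 against 3 arrays gave p = 0.1, two-sided, the smallest it can give. Slide 1, with 1 array of each genotype, gave -0.15, and slide 2, with 2 of each, gave -0.33. Without replicate 2 of H19 KO the difference was -0.13.

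The Agt signal was weak, and genes at that level read lower in H19 KO across the whole array. Its processed intensity was 115, 104 and 114 in H19 KO and 105, 128 and 130 in WT, where the lowest intensity called well above background was 44.2 to 69.5 on each array. When all tested genes were ranked by mean level and divided into 5 classes of nearly equal size, 86.7% of the lowest class and 69.0% of the second read lower in H19 KO, with median log2 differences of -0.52 and -0.15. In the other 3 classes the medians were -0.01, 0.01 and 0.01. Every H19 KO array lay below every WT array for 20.4% of the lowest class and 11.8% of the second. In the other 3 classes these shares were 5.4%, 2.9% and 1.2%. The lowest class held genes that passed the filter only or mainly through WT arrays, whereas Agt and Nr3c2 were well above background on all 6 arrays. When all 6 arrays were required, the median of all genes was -0.02, against -0.05. Then 781 of 18456 genes read lower at an unadjusted limma p under 0.05, against 1496 of 21888. Agt and Nr3c2 lay in the second class, at mean levels of -2.73 and -2.56 where that class begins at -2.74, and Ece1 lay there too. With quantile normalization, which gives every array the same distribution of signals, Agt turned to 0.09 and Nr3c2 shrank to -0.07; the part of the array-wide shift in either difference was not tested.

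Ace, which encodes the angiotensin-converting enzyme, varied more between arrays of 1 genotype than between genotypes. It read -0.96, 0.88 and -0.48 in H19 KO and -0.08, -0.51 and -0.96 in WT. Replicate 2 of H19 KO was the highest of the 6 arrays, and the other H19 KO arrays lay within the WT range or at its lower end. The means were -0.19 ± 0.96 in H19 KO and -0.52 ± 0.44 in WT (SD, n = 3 each), a log2 difference of 0.33 (SE 0.48, limma adjusted p = 0.999), with a ratio interval of 0.572 to 2.76. The difference turned to -0.20 without replicate 2 of H19 KO, and it was -0.88 on slide 1 and 0.94 on slide 2.

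Agtr1a, the main type 1 angiotensin II receptor gene of the mouse, gave a bright signal with no net difference. It read 4.91, 4.07 and 4.74 in H19 KO and 4.29, 4.42 and 5.08 in WT, and the genotypes overlapped throughout. The means were 4.58 ± 0.44 in H19 KO and 4.60 ± 0.43 in WT, a log2 difference of -0.02 (SE 0.30, limma adjusted p = 0.999) with a ratio interval of 0.602 to 1.61. The slides gave opposite signs, 0.62 on slide 1 and -0.35 on slide 2. For its mouse paralogue Agtr1b, 0 of 6 arrays were well above background.

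Agtr2, the type 2 angiotensin II receptor gene, was measured on a single array. Its log2 level was -5.80, -6.52 and -2.37 in H19 KO and -5.45, -5.29 and -6.33 in WT. Only replicate 3 of H19 KO was well above background, at a processed intensity of 144, where the other H19 KO arrays gave 13.99 and 10.1 and the WT arrays 14.6, 20.6 and 9.37. The pixels of that spot were uneven, with an SD of 138.7 around a mean of 267.4, against SDs of 24.2 to 46.4 on the other 5 arrays, and the scanner software did not mark it as an outlier. The array carries 1 spot of this probe, so the reading has no second spot beside it. No fold is given, because the mean of the H19 KO arrays lay below the lowest signals that the WT arrays could measure.

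Edn1, the gene of the endothelin-1 precursor, was measured with the most repetition, 10 spots of 1 probe on each array. The spots left after outlier flags numbered 6, 10 and 9 in H19 KO and 10, 7 and 8 in WT. Their means were 1.14, 0.51 and 0.61 in H19 KO and 0.98, 0.27 and 1.63 in WT. The highest and the lowest of the 6 arrays were both WT, replicates 3 and 2, and the H19 KO arrays lay between them. The genotype means were 0.75 ± 0.34 in H19 KO and 0.96 ± 0.68 in WT (SD, n = 3 each), a log2 difference of -0.21 (SE 0.36, limma adjusted p = 0.999), with a ratio interval of 0.481 to 1.56.

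Spots of 1 array differed far less than arrays did. The SD between spots of an array was 0.06 pooled over the 6 arrays, whereas the SD between arrays was 5.57 times that in H19 KO and 11.2 times in WT. The difference was 0.16 on slide 1 and -0.39 on slide 2, and it turned to 0.13 without replicate 3 of WT. The spots of an array share 1 RNA sample, so they add no replicate of the genotype, and their SD leaves out labelling, hybridisation and scaling, which differ between arrays as the samples do.

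**Figure D2:**
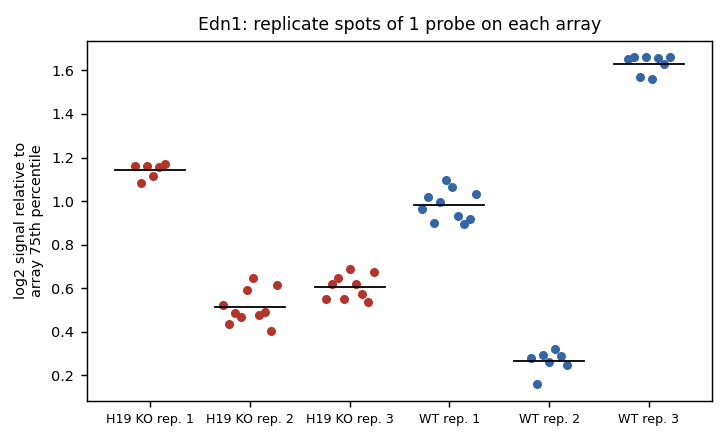
Level of every usable Edn1 spot (log2 signal relative to the 75th percentile of the array) on each H19 KO array (red) and each WT array (blue), with the array mean as a line. Spots of an array lie close together, with SDs of 0.04 to 0.08, while the array means run from 0.51 to 1.14 in H19 KO and from 0.27 to 1.63 in WT.

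Ece1, which encodes the enzyme that releases endothelin-1, did not differ beyond the spread between arrays. It read -1.30, -0.66 and -1.03 in H19 KO and -0.65, -0.86 and -1.53 in WT. Replicate 1 was low in H19 KO and high in WT, and replicate 3 of WT was the lowest of all. The means were -0.996 ± 0.32 in H19 KO and -1.01 ± 0.46 in WT, a log2 difference of 0.02 (SE 0.28, limma adjusted p = 0.999) with a ratio interval of 0.641 to 1.60. The difference was -0.65 on slide 1 and 0.35 on slide 2.

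Ednra, the endothelin receptor gene known for its expression in cardiomyocytes and smooth muscle, was the most even of the 8. It read 5.20, 5.01 and 5.25 in H19 KO and 5.27, 5.21 and 5.21 in WT. Replicate 2 of H19 KO was slightly below the rest and the genotypes overlapped. The means were 5.15 ± 0.13 in H19 KO and 5.23 ± 0.03 in WT (SD, n = 3 each), a log2 difference of -0.07 (SE 0.14, limma adjusted p = 0.999). The ratio interval, 0.752 to 1.20, was the narrowest among the 8, and both slides gave a small negative value, -0.06 on slide 1 and -0.08 on slide 2.

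Ednrb, the gene of the endothelin B receptor, was read by 2 probes whose starts lie 6386 bases apart. The brighter probe read 1.07, 2.09 and 1.35 in H19 KO and 1.35, 1.14 and 0.90 in WT. Replicate 2 of H19 KO stood highest, as for Ace, and replicate 3 of WT lowest. The means were 1.51 ± 0.52 in H19 KO and 1.13 ± 0.23 in WT, a log2 difference of 0.37 (SE 0.28, limma adjusted p = 0.841) with a ratio interval of 0.816 to 2.06. The difference was -0.28 on slide 1 and 0.70 on slide 2, and it was 0.08 without replicate 2 of H19 KO and 0.10 when both probes were averaged.

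The weaker Ednrb probe, printed above, read -2.77, -2.56 and -2.79 in H19 KO and -2.12, -2.64 and -2.82 in WT. Replicate 1 of WT was its highest array, and replicate 2 of H19 KO no longer stood apart from WT. Its log2 difference was -0.18, opposite in sign to that of the brighter probe, with an adjusted p of 0.979 when every probe was fitted on its own in limma. Within a slide the probes had the same sign, since the weaker one gave -0.65 on slide 1 and 0.06 on slide 2. Neither probe passed the test.

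Nr3c2, the mineralocorticoid receptor gene, read -2.73, -2.93 and -2.52 in H19 KO and -2.01, -2.33 and -2.83 in WT. The genotypes overlapped because replicate 3 of WT lay as low as the H19 KO arrays. The means were -2.73 ± 0.20 in H19 KO and -2.39 ± 0.41 in WT (SD, n = 3 each), a log2 difference of -0.34 (SE 0.24, limma adjusted p = 0.810) with a ratio interval of 0.535 to 1.17. It was the most negative difference of the 8, with -0.72 on slide 1 and -0.15 on slide 2. The value rested on single arrays: it was -0.15 without replicate 1 of WT and -0.55 without replicate 3 of WT. In the latter setting the unadjusted p was 0.0328 and the limma adjusted p 0.205. There 3672 of the 21888 genes tested read lower and 321 higher at an unadjusted p under 0.05, against 1496 and 233 with all 6 arrays.

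**Figure D3:**
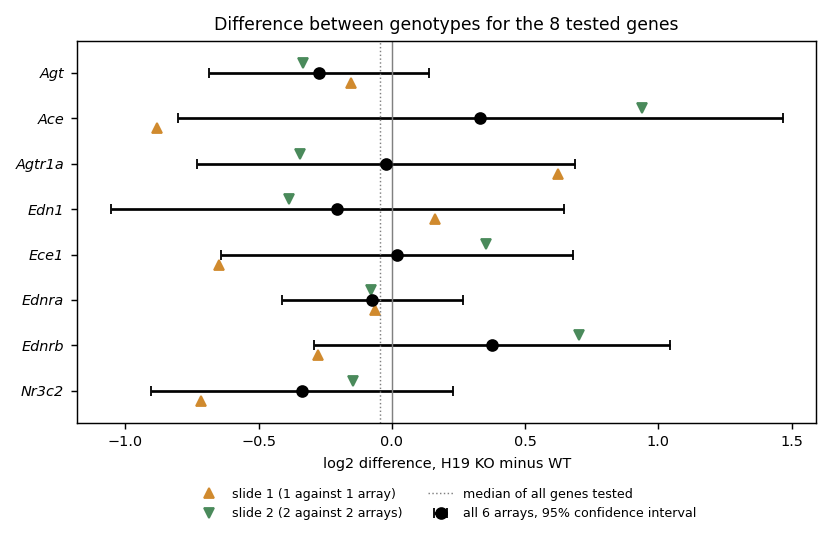
Log2 difference, H19 KO minus WT, of the 8 tested genes with its 95% confidence interval (limma, black), and the values within slide 1 and slide 2 (triangles); the dotted line is the median of all genes tested, -0.05. Every interval includes 0, and the slides differ in sign for Ace, Agtr1a, Edn1, Ece1 and Ednrb; all 8 differences are positive when arrays are scaled to the median of all probes.

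The members were also compared by the shape of their profile over the 6 arrays, each gene centred on its own mean, with the root mean square difference between profiles as the measure of likeness. Ace, Ednrb and Ece1 shared a high reading on replicate 2 of H19 KO and a low one on replicate 3 of WT. Ece1 was the nearest other member to Ednrb (0.260), and Ednrb to both Ece1 (0.260) and Ace (0.279). Agt and Ednra were nearest to each other (0.132), and both were lowest on replicate 2 of H19 KO. Edn1 stood furthest from its nearest member, Agtr1a (0.323). These values describe 6 arrays and carry no test.

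Markers of other cells moved with the first of these profiles. The mean of the 10 fibroblast markers, centred in the same way, was -0.36, 1.22 and 0.08 in H19 KO and 0.30, -0.45 and -0.78 in WT. That of the 12 endothelial markers was -0.36, 0.36 and 0.09 in H19 KO and 0.27, -0.03 and -0.33 in WT, and that of the 10 mural markers -0.23, 0.34 and -0.12 in H19 KO and 0.25, 0.28 and -0.52 in WT. Replicate 2 of H19 KO was thus the highest array for all 3 lists, and replicate 3 of WT was the lowest for the fibroblast and mural lists and next to the lowest, above replicate 1 of H19 KO, for the endothelial list.

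Ace lay 0.189 from the fibroblast mean, compared with 0.630 from a flat line. Ece1 lay 0.087 from the mural and 0.125 from the endothelial mean, compared with 0.324 from a flat line, and Ednrb lay 0.213 from the endothelial mean, compared with 0.379. All 10 fibroblast markers and 6 of 12 endothelial markers read higher in H19 KO, with median differences of 0.54 and 0.03. Without replicate 2 of H19 KO the fibroblast median was 0.03, and leaving out each array in turn moved it between 0.03 and 0.90 and the endothelial median between -0.16 and 0.27. Within slide 1 the median difference of the fibroblast markers was -0.86 and within slide 2 it was 1.28. The endothelial medians were -0.70 and 0.43, and the mural medians -0.47 and 0.24. Ace, Ednrb and Ece1 had these same signs on each slide. The part of these cells in the differences of Ace, Ednrb and Ece1 was not tested.

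The other 5 tested genes were closer to the cardiomyocyte mean than to any other list, though all but Agt and Ednra only slightly closer than to a flat line. That mean was 0.07, -0.19 and 0.02 in H19 KO and -0.02, 0.07 and 0.05 in WT. Ednra lay 0.053 from it, compared with 0.084 from a flat line, and Agt 0.137, compared with 0.205. For Agtr1a, Edn1 and Nr3c2 the distances were 0.294, 0.434 and 0.298, compared with 0.355, 0.452 and 0.313 from a flat line. The 8 tested macrophage markers all read lower in H19 KO (median -0.57, or -0.35 without replicate 1 and -0.91 without replicate 2 of H19 KO), and no member had a profile nearest to theirs.

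**Figure D4:**
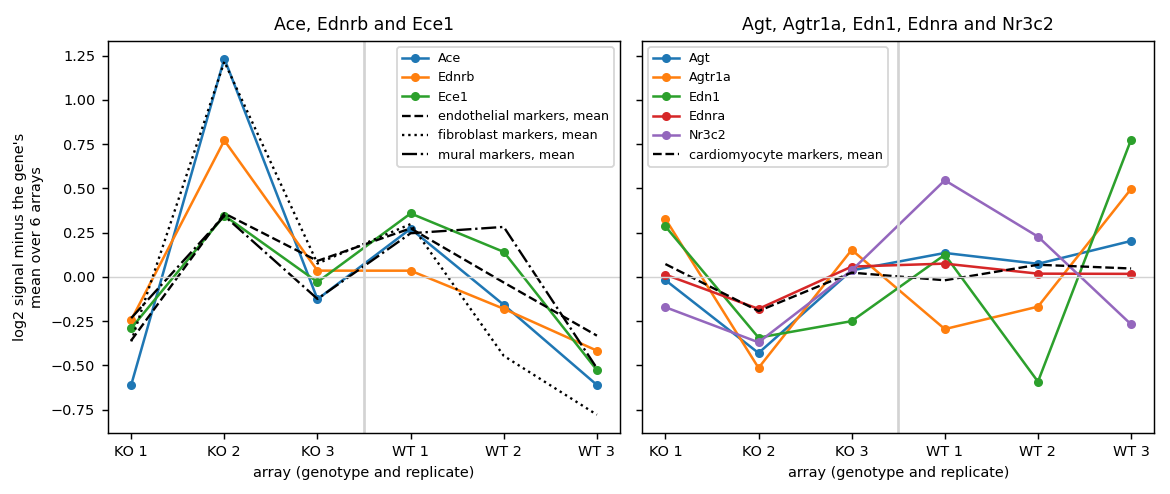
Centred level (log2 signal minus the gene's own mean over the 6 arrays) of the tested genes on each array, H19 KO at the left and WT at the right, beside the mean of the marker lists (black lines). Ace and Ednrb peak and Ece1 is near its peak on replicate 2 of H19 KO, where the fibroblast mean is 1.22, and all 3 lie low on replicate 3 of WT, where it is -0.78; Agt, Agtr1a, Ednra and Nr3c2 are lowest on replicate 2 of H19 KO.

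Over all tested genes with established symbols, the following profiles were among the nearest to each member. Col5a2, a fibrillar collagen gene, and Camkk1 lay nearest to Ace (0.090 and 0.091). Fmnl3 and Galnt10 lay nearest to Ece1 (0.045 and 0.046), and Praf2 and Spats2l to Ednrb (0.065 and 0.079). Rrad, a small GTPase of muscle, was nearest to Edn1 (0.090), followed at a distance by Rcor2 (0.144). Zfpm2 was among the nearest to Agtr1a (0.081), Mllt6 and Sod2 were nearest to Ednra (0.025 and 0.032), Bola1 and Sgf29 to Agt (0.045 and 0.052), and Ndc80 and Lipe to Nr3c2 (0.048 and 0.063). With so many genes compared over 6 arrays, close profiles arise for any gene, and nothing on function is read from them.

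Of 79 other genes of the same pathways, 63 could be tested and 0 passed an adjusted p of 0.05 (limma). They divided into 37 that read higher and 26 that read lower in H19 KO, with a median log2 difference of 0.05, against -0.05 for all genes. The arrays of the genotypes did not overlap for 5 of the 63, against 10.5% of all genes. At an unadjusted p under 0.05 there was 1 of 63, against 7.9% of all genes. The 16 that could not be tested included Edn3, the third endothelin gene, the endothelin-processing homologues Ecel1 and Kel, and all 5 genes of the kinin system. The steroid synthesis genes Star, Cyp11a1 and Cyp11b1 were not well above background on any array, and Hsd11b2, which protects the mineralocorticoid receptor from glucocorticoids in the kidney, was so on 1.

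Enpep, which encodes aminopeptidase A, the enzyme that trims angiotensin II to angiotensin III, was that 1 gene. It read 0.60, 1.06 and 0.995 in H19 KO and 1.60, 1.67 and 1.79 in WT. Every H19 KO array lay below every WT array, as for 8.36% of all genes and 5.4% of the third class of level, where Enpep lay. The means were 0.89 ± 0.25 in H19 KO and 1.69 ± 0.10 in WT (SD, n = 3 each), a log2 difference of -0.80 (SE 0.18), with an unadjusted p of 0.00270 that did not survive adjustment (limma adjusted p = 0.616). The difference was -0.999 on slide 1 and -0.70 on slide 2. It was negative in all 11 alternative settings that change its value, from -0.89 to -0.38, and its adjusted p ran from 0.0912 to nearly 1. The 0.0912 came without replicate 3 of WT, where 3672 of the 21888 genes read lower at an unadjusted limma p under 0.05.

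Other angiotensin-processing genes went both ways without passing the test. Ren1, the renin gene, was dim and read -2.58, -2.47 and -2.51 in H19 KO and -2.05, -2.36 and -2.26 in WT, with no overlap (difference -0.30, limma adjusted p = 0.665). In the second class of level, where Ren1 lay, 11.8% of genes had every H19 KO array below every WT array. Cma1, a mast cell chymase, differed by -0.74 (adjusted p = 0.633) but was well above background on 1 H19 KO array and 2 WT arrays. Anpep, which encodes aminopeptidase N, the next enzyme after Enpep, differed by 0.69 (adjusted p = 0.650), with -0.26 on slide 1 and 1.17 on slide 2. The 16 tested genes of this role had a median of -0.01.

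Among 11 receptors and partners of the angiotensin receptors, 7 read lower and 4 higher (median -0.09). The smallest p-values there belonged to Rgs2, a regulator that ends Gq signals (-0.36), the arrestin gene Arrb2 (-0.23), Arap1 (0.28) and the receptor kinase gene Grk5 (0.23), with adjusted p between 0.780 and 0.927 (limma). The 16 genes of Gq and G12 signalling, through which the type 1 angiotensin receptor and the endothelin receptors act, centred on 0.03. Rhoa (0.24), the inositol trisphosphate receptor genes Itpr1 (0.27) and Itpr2 (0.18), and the protein kinase C gene Prkce (0.18) had adjusted p between 0.848 and 0.954. Of 5 further endothelin genes, Ece2 and Edn2 were tested, both at 0.20 with an adjusted p of 0.999. Edn2 was dim, well above background on 2 H19 KO arrays and 1 WT array.

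On the corticosteroid side, Nr3c1, the glucocorticoid receptor gene, read 5.62 ± 0.07 in H19 KO and 5.59 ± 0.14 in WT (difference 0.03). Hsd11b1, which regenerates active glucocorticoid, differed by 0.18, and Cyp11b2, the aldosterone synthase gene, was dim and differed by -0.53 (limma adjusted p = 0.832). Of 8 targets of the corticosteroid receptors 7 read higher in H19 KO (median 0.16), and none passed. Per1, a clock gene, differed by 0.65, Scnn1a, a sodium channel subunit gene, by 0.24, the kinase gene Sgk1 by 0.19 and Fkbp5, a receptor chaperone, by 0.17, with adjusted p of 0.781 or more. Scnn1a was dim, well above background on 2 H19 KO arrays and 1 WT array.

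Genes known to respond to angiotensin II or endothelin-1 in the heart were the most spread. Of these 7 genes, 5 read higher and 2 lower in H19 KO, with a median of 0.47. Within slide 1 the median was 0.01 and within slide 2 it was 0.27. Ccn2, a matricellular growth factor, read 7.14, 7.14 and 6.89 in H19 KO and 6.28, 6.58 and 6.92 in WT (difference 0.47, limma adjusted p = 0.633). The genotypes overlapped by replicate 3 of WT. Nox4, an NADPH oxidase, read -0.57, 1.18 and -1.18 in H19 KO and -1.11, -1.21 and -2.59 in WT (difference 1.45, adjusted p = 0.639), again highest on replicate 2 of H19 KO. Cybb, the phagocyte NADPH oxidase, differed by -0.90, with an adjusted p of 0.690, but was well above background on 1 H19 KO array and 2 WT arrays. Nox4 passed, with an adjusted p of 0.0132, only when arrays were scaled to the median of all probes, a setting that moved the median of all genes to 0.37.

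**Figure D5:**
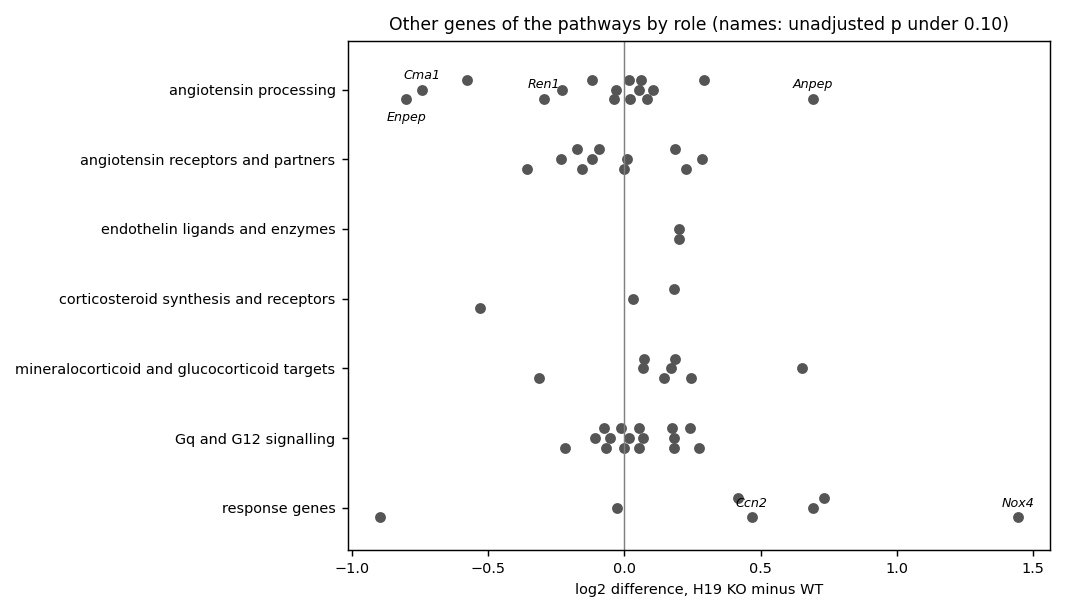
Log2 difference, H19 KO minus WT, of the 63 other tested genes by role, one point per gene (vertical offsets within a role are for legibility); names are given at an unadjusted p under 0.10. The points run from -0.90 to 1.45, lie on both sides of 0 in all roles but the 2 endothelin genes, and none passed an adjusted p of 0.05; scaling to the median of all probes moves the list's median from 0.05 to 0.47.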

How the data were processed

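Per the labels' protocols, total RNA was amplified to labelled cRNA for Agilent mouse arrays with 1 colour. Per the file headers and the submitters' processing notes, Agilent Feature Extraction 10.7.3.1 gave the deposited intensity of each spot, background-subtracted and not normalized between arrays, with flags for spots well above background. The authors' deposited value table holds intensity on a linear scale, with the same median (69.7) on all arrays. Probe positions follow mm9, per the file headers.

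Processed intensities were put on a log2 scale, control spots (3671 per array) and outlier spots were dropped, replicate spots were averaged per probe, and the 75th percentile over probes (638 to 928) was subtracted. A further 32 probes lacked a usable spot on some array and were dropped. The filter kept the 29990 probes that were well above background on 3 or more of 6 arrays, and a gene was represented by its brightest probe (21888 genes). Names were updated through RefSeq (GRCm38.p6, names only): an accession matched for 26425 probes, a symbol for 3988 and a synonym for 826, while 24442 retained the file's name. Genotypes were compared with limma 3.58.1 (R 4.3.3), H19 KO minus WT, adjusted by Benjamini-Hochberg over all genes. In simulated data with 21888 genes, this recovered 0 of 50 genes changed 1.5-fold, 15 of 50 changed 2-fold, 44 of 50 changed 4-fold and 49 of 50 changed 8-fold, with 10 false calls. All these changes were placed in 1 simulated data set. Its errors were independent between genes, with no effect of slide or array shared by genes, so the rates need not hold for the real arrays.

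The members and lists were chosen with earlier results of these data known. The named genes are all members, H19, up to 4 genes of each role by smallest p, the nearest profiles, the brightest markers and the genes that were not measurable; the values of 2 genes that this rule names are not reported here. Same-numbered arrays did not deviate together (correlations of -0.22, -0.05 and 0.04), so the numbers were not taken to pair samples. Alternatives were other background corrections, scalings, filters, probe rules, blocks and variance priors, and leaving out each array; taking the percentile over spots was added after the data were seen.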

Additional observations from a re-analysis of the deposited data

How the results depend on the processing

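No member passed an adjusted p of 0.05 (limma) in any of the 19 alternatives, although filters, blocks and priors leave a difference as it is. Of the 89 recomputed member differences that an alternative could move, 74 had the sign of the main value and 15 turned, as follows. Scaling to the median of all probes gave Agt 0.146, Agtr1a 0.398, Edn1 0.215, Ednra 0.347 and Nr3c2 0.0844; this scaling adds the same amount to every gene, and relative to the all-gene median Agt stayed at -0.23 and Nr3c2 at -0.29. Quantile normalization gave Agt 0.0857, and the authors' deposited values gave it 0.0916. Normexp background correction gave Agtr1a 0.00211 and Ece1 -0.0349. Leaving out 1 array gave ranges of -0.20 to 0.72 for Ace, -0.19 to 0.23 for Agtr1a, -0.24 to 0.20 for Ece1 and -0.55 to 0.13 for Edn1, and without a change of sign -0.36 to -0.13 for Agt, -0.12 to -0.001 for Ednra, 0.08 to 0.59 for Ednrb and -0.55 to -0.15 for Nr3c2. Leaving out replicate 2 of H19 KO turned Ace, Agtr1a (0.23) and Ece1 (-0.15), and replicate 3 of WT turned Agtr1a (0.22), Ece1 (-0.24) and Edn1 (0.13). The cause was not tested.

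The 8 genes that passed overall became 3 with quantile normalization, 3 with the authors' values, 118 with scaling to the median (101 higher and 17 lower), 1 with a filter of at least 1 array, 1 with no filter, 1 with the slide as a block and 1 to 10 with 1 array left out (1 without any single H19 KO array). Fitting each of 29990 probes alone called 14 probes of 11 genes, 4 of them H19 probes. With the replicate block 1 gene passed, no member did, and member adjusted p-values were 0.868 or more. Scaling to the median moved the median of the 63 other pathway genes to 0.47 and let 1 of them, Nox4, pass. In simulation 3 against 3 arrays recovered 0 of 50 genes changed 1.5-fold and 15 of 50 changed 2-fold, so most changes of these sizes were missed. For Agt, Nr3c2 and the weaker Ednrb probe the signal over background also limits the reading.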
